A study of Mus musculus with 13 samples.

Results

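The genes described here encode peptidases and disaccharidases of the intestinal brush border, the membrane of microvilli on absorptive enterocytes where the last steps of protein and sugar digestion take place. They were chosen by name, with earlier results of these data known, as Mep1a, Mep1b, Dpp4, Anpep, Enpep, Lct, Sis, Treh and Tmprss15. An array probe set was taken when its annotation gave the member as its sole symbol, and a gene with several was represented by the one of highest mean level. Of the 9 genes, 8 were measured this way, out of 12393 genes in all, and Sis was not analysed here. Dpp4 had a second probe set, so the members rested on 9 of 22690 probe sets.

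RNA came from the duodenum, the first stretch of the small intestine, of K-Ras mutant mice and wild-type mice of mixed strain background. K-Ras is a small GTPase that relays growth factor signals, and the series title sets its activation beside a high-fat diet in intestinal tumour formation. Feeding began at 5 weeks of age and lasted 22 weeks. The groups were wild type on normal diet (2 arrays), mutant on normal diet (3), wild type on high-fat diet (2), mutant on high-fat diet (2), wild type on high-fat diet plus butyrate (1) and mutant on high-fat diet plus butyrate (3). Butyrate is a fatty acid that gut bacteria make from fibre. The labels also call the mutants ViRas, and the fields used here give neither the allele nor the cells in which it is active. Each of the 13 samples had its own array, and values are the authors' RMA levels on the log2 scale, where a difference of 1 is a doubling.

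In the gut lumen, proteins are cut by pancreatic proteases into peptides, and brush border peptidases shorten these to amino acids and very short peptides that transporters take up. Enteropeptidase, the product of Tmprss15, sits on the duodenal brush border and starts the cascade by activating trypsinogen. Disaccharidases do the matching work for sugars, with lactase splitting milk sugar, sucrase-isomaltase splitting sucrose and starch fragments, and trehalase splitting trehalose. Several of these enzymes are used as markers of differentiated villus enterocytes.

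The members fell into separate patterns. Enpep, Mep1a and Dpp4 were lower in mutants on normal and high-fat diet, and Lct differed in the same direction without passing the test. With the butyrate arrays included, none of these genes passed by genotype. Treh was higher on high-fat diet than on normal diet in both genotypes, and Treh and Anpep were lower with butyrate than on high-fat diet alone. Mep1b and Tmprss15 passed no test. RefSeq start sites (build GRCm38.p6) of the genes behind these patterns are shown from 250 bases before to 50 bases after the annotated start, 5′ to 3′ on the gene's own strand. Capitals mark matches to short motifs of intestinal transcription factors on either strand.

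Enpep, chr3:129332700-129332999, minus strand: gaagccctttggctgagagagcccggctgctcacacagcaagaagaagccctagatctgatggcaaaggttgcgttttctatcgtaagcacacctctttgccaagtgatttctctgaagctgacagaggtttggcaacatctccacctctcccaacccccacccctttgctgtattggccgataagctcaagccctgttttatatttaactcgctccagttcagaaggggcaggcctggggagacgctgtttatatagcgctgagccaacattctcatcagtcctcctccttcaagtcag

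Mep1a, chr17:43502724-43503023, minus strand: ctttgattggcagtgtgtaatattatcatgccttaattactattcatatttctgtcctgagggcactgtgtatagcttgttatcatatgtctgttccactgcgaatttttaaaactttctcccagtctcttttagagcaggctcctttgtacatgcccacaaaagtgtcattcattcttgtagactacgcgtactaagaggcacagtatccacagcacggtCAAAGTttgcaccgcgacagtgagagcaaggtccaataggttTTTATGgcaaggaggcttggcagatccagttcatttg

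Dpp4, chr2:62412182-62412481, minus strand: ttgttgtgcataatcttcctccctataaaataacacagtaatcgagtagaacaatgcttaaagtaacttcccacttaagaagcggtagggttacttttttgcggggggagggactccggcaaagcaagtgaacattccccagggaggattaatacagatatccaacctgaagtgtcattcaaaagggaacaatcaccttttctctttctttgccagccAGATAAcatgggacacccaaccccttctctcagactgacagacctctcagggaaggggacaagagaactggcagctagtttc

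Lct, chr1:128328269-128328568, minus strand: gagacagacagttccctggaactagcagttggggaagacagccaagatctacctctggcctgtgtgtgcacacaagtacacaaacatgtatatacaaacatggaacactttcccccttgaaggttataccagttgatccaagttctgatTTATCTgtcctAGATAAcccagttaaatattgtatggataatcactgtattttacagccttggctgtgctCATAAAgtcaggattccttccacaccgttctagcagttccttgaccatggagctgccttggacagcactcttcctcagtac

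Treh, chr9:44672983-44673282, plus strand: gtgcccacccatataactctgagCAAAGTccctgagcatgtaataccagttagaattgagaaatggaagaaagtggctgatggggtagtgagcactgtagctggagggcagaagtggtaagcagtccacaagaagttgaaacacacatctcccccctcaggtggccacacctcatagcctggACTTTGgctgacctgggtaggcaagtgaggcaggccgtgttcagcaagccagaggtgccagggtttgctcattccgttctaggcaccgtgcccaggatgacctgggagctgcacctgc

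Anpep, chr7:79848161-79848460, minus strand: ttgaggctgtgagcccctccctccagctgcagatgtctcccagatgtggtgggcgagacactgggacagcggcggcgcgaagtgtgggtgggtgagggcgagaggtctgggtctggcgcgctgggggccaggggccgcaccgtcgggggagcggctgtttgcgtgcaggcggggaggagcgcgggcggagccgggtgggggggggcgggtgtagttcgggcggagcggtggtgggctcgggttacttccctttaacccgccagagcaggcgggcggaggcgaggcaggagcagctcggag

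The motif of HNF1 was searched as GTTAAT and that of the CDX factors as TTTATG. For GATA factors the letters were AGATAA and for HNF4 they were CAAAGT. No marked match overlapped another. Among 32851 RefSeq windows of this length, 7.1% held the HNF1 letters, 11.9% the CDX letters, 11.2% the GATA letters and 14.4% the HNF4 letters. Of 8 members with a window, 2 held the HNF1 letters, 4 the CDX letters, 2 the GATA letters and 2 the HNF4 letters. In the Lct window a CDX match began 31 bases before the start and GATA matches began 101 and 90 bases before it. Mep1a held an HNF4 match 29 bases before the start and a CDX match after it, Dpp4 a GATA match 32 bases before it, and Treh HNF4 matches 227 and 68 bases before it. For Mep1a and Dpp4 the start shown lies inside the annotated gene span, which runs to 43504143 and 62412315, so it is not the outermost start. The start used by these genes in these samples was not analysed. The Enpep and Anpep windows held none of these letters. The Anpep window had a G and C content of 72.3% against a median of 52.7% over all windows. In human, ANPEP is transcribed from separate promoters in myeloid and intestinal epithelial cells, and which start was used in these samples was not analysed here. A match is a description of the letters, and says nothing of binding in these samples.

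Across all arrays, medians lay between 6.04 and 6.14, and the diets carry array identifiers from different number series, so a diet comparison is also a comparison of array series and the causes cannot be told apart. Genotypes were compared within a series. The mean of 13 measured enterocyte markers lay between 12.44 and 12.88 on every array, that of proximal small intestine markers between 9.11 and 10.24, and that of ileum markers between 6.74 and 7.45. The proximal list includes the hormone gene Gcg and genes that differed between high-fat and normal diet, by up to 4.32 in mutants. Its mean is therefore not a measure of position along the gut alone. The mean of 18 acinar pancreas genes ranged from 5.47 to 12.53, with wide spread inside the groups. That of gastric and Brunner gland markers ranged from 5.50 to 9.76. Ileum marker means also differed inside groups, such as 7.45 and 6.78 on wild-type normal diet arrays 1 and 2. The part of gastric tissue or of position along the gut in the members' values was not tested. Mutant butyrate array 2 stood apart from the other arrays of its group and had the lowest level of all 13 arrays in 5 members, namely Mep1a, Dpp4, Anpep, Enpep and Lct. The share of all genes lowest on this array was not computed, so the count cannot be called particular to the members. Where leaving array 2 out changed a call on a member, the values without it are also given. This array was singled out by the members' own low values, so p-values without it may be too small.

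**Figure D1:**
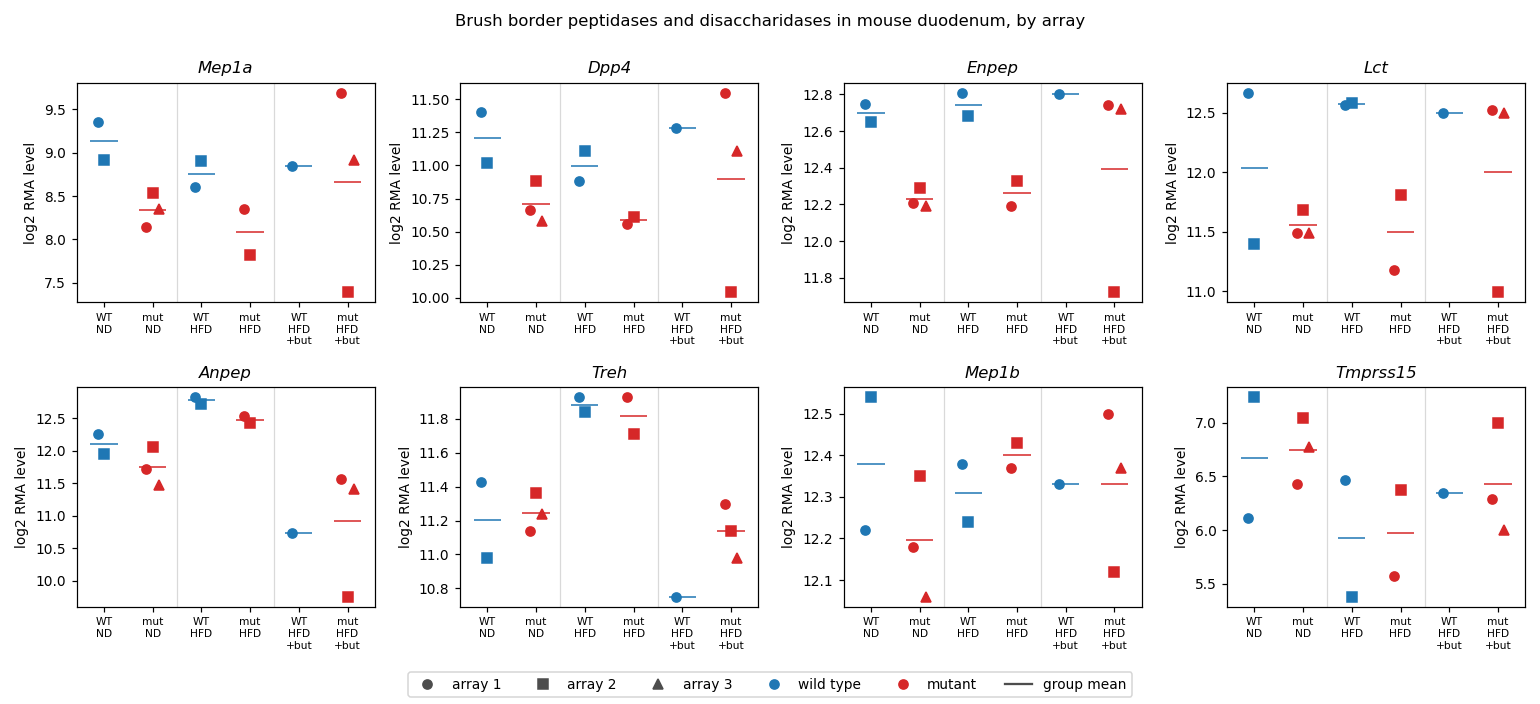
RMA level (log2, y axis, own scale in each panel) of the 8 measured members on each of the 13 arrays, by genotype and diet (ND normal diet, HFD high-fat diet, but butyrate). Points are arrays and lines are group means. Mutants lie below wild type in Mep1a, Dpp4 and Enpep on normal and on high-fat diet, Treh and Anpep are highest on high-fat diet, and mutant butyrate array 2 is lowest in 5 panels.

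Enpep encodes aminopeptidase A, which removes acidic residues from peptide ends and also cuts angiotensin. On normal diet its level was 12.75 and 12.65 on the wild-type arrays and 12.21, 12.29 and 12.19 on the mutant arrays. On high-fat diet it was 12.81 and 12.68 in wild type and 12.19 and 12.33 in mutants. All 5 mutant arrays therefore lay below all 4 wild-type arrays. With diet as a term in a limma fit of these 9 arrays, the mutant level was lower by 1.39-fold, a log2 difference of -0.48 ± 0.06 (SE, adjusted p = 0.00342), and the gene ranked 40 of 12393 by p. It passed in each of the 9 fits that left out an array, with adjusted p up to 0.0141. The comparison without the butyrate arrays was chosen with earlier results of these data known, in which some mutant butyrate arrays lay near the wild type. Leaving them out favours a genotype difference, so its p-values may be too small for every member.

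Mep1a encodes the alpha subunit of meprin, a secreted and membrane-bound metalloprotease. On normal diet its level was 9.35 and 8.91 on the wild-type arrays and 8.14, 8.53 and 8.35 on the mutant arrays. On high-fat diet it was 8.60 and 8.90 in wild type and 8.35 and 7.82 in mutants. Here too the mutant arrays did not overlap the wild-type arrays, by the narrow margin of 8.60 against 8.53. The log2 difference was -0.73 ± 0.14 (adjusted p = 0.0191, limma), or 1.66-fold lower. With high-fat array 2 left out, adjusted p was 0.0521 for the wild-type and 0.0561 for the mutant array, and it passed in the other 7 such fits.

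Dpp4 encodes the dipeptidyl peptidase that removes residue pairs after proline or alanine and inactivates incretin hormones. On normal diet its level was 11.40 and 11.02 in wild type and 10.66, 10.88 and 10.58 in mutants. On high-fat diet it was 10.88 and 11.11 in wild type and 10.56 and 10.61 in mutants. Within each diet the genotypes were apart, while over both diets the highest mutant and the lowest wild-type array were both at 10.88. The log2 difference was -0.46 ± 0.10 (adjusted p = 0.0272, limma). It passed in 3 of the 9 fits that left out an array, with adjusted p up to 0.0765. The second Dpp4 probe set gave -0.79 ± 0.12 (adjusted p = 0.00702, limma), with mutant arrays from 6.19 to 6.97 and wild-type arrays from 7.0 to 7.88. Its level was 7.88 and 7.52 in wild type and 6.84, 6.97 and 6.73 in mutants on normal diet, and the genotypes did not overlap there.

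Lct encodes lactase. On high-fat diet its level was 12.57 and 12.58 in wild type and 11.18 and 11.81 in mutants, which did not overlap. On normal diet it was 12.67 and 11.40 in wild type and 11.49, 11.68 and 11.49 in mutants, so that wild-type array 2 lay below every mutant array. The log2 difference over the 9 arrays was -0.75 ± 0.24 and did not pass (adjusted p = 0.11, limma). Without wild-type normal diet array 2 it was -1.09 (adjusted p = 0.00268), and without the other arrays in turn adjusted p was 0.146 or more. On high-fat diet alone the difference was -1.08 ± 0.49 (adjusted p = 0.434).

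The remaining members did not differ by genotype past the threshold in these 9 arrays. Anpep, aminopeptidase N, which trims neutral residues, differed by -0.33 ± 0.11 (adjusted p = 0.136, limma). Mep1b, the beta subunit of meprin, differed by -0.06 ± 0.09, with a 95% interval from -0.27 to 0.15. Treh differed by -0.01 ± 0.10 (interval -0.22 to 0.21) and Tmprss15 by 0.06 ± 0.29 (interval -0.57 to 0.70). The interval of Mep1b thus leaves out a change as large as the fitted one of Mep1a, whereas that of Tmprss15 is wide.

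In all, 3 of 8 members fell in mutants in the 9 arrays and 0 rose, where 4.63% of all genes passed in either direction and 2.39% as lower. Leaving out wild-type or mutant high-fat array 2 left 1 member, Enpep, and leaving out wild-type normal diet array 2 gave 4. The members' median log2 difference was -0.40, against 0.01 over all genes. In 2 of 8 members the mutant arrays lay below every wild-type array, as they did in 2.3% of all genes. The members and these 9 arrays were chosen with earlier results known, so the excess over all genes may come partly from that choice. In bulk tissue, fewer cells of a type and less RNA per cell cannot be told apart. Beside these falls, 7 of 9 macrophage markers, 5 of 12 lymphocyte markers and 5 of 5 Paneth cell markers were lower in mutants, while 1 of 13 enterocyte markers was lower and 0 were higher (list median 0.08). The genes that were lower included the macrophage genes Tyrobp (-1.10), Lyz2 (-1.57), C1qa (-0.96) and C1qb (-0.90), the lymphocyte genes Ptprc (-0.95), Cd3g (-0.95), Cd3d (-0.87), Gzma (-1.06) and Cd79b (-0.89), and the Paneth genes Mptx1 (-3.13), Mmp7 (-2.53), Itln1 (-2.48), Pla2g2a (-1.80) and Lyz1 (-1.29). The mean of the macrophage markers was 7.67 to 8.04 on wild-type and 6.54 to 7.25 on mutant arrays of these diets. That of the Paneth markers was 9.63 to 11.10 on wild-type and 7.11 to 8.63 on mutant arrays. The lymphocyte means were 7.07 to 7.98 and 6.59 to 7.11. The part of these other cells in the members' falls was not tested. The acinar pancreas means overlapped between genotypes (6.26 to 12.30 in wild type and 5.47 to 12.53 in mutants).

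**Figure D2:**
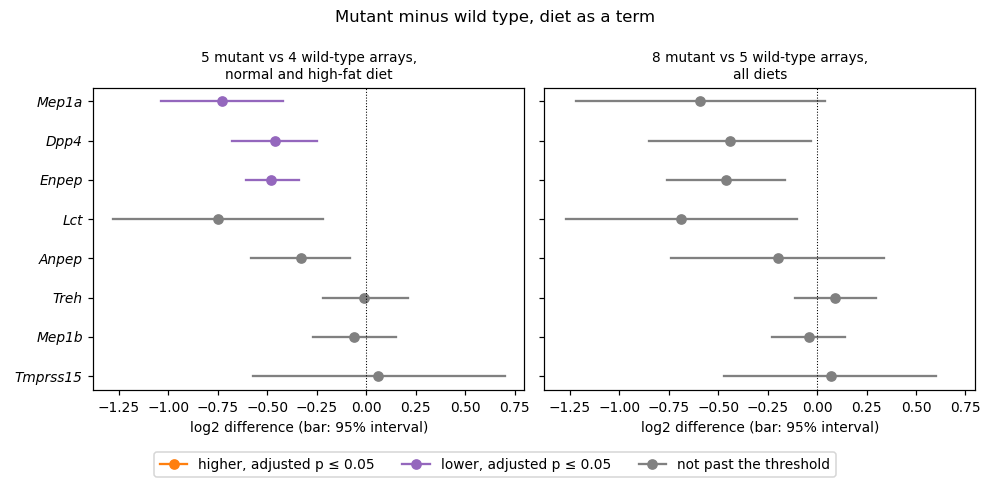
Log2 difference, mutant minus wild type, for each measured member (x axis, points) with its 95% interval (bars), from limma with diet as a term. Without the butyrate arrays (left) Mep1a, Dpp4 and Enpep pass as lower, whereas over all 13 arrays (right) none passes and the intervals of Mep1a and Dpp4 are wider.

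With the butyrate arrays included, 0 of 8 members differed between 8 mutant and 5 wild-type arrays by limma, where 1.02% of all genes did. At an unadjusted p under 0.05 there were 3 members, namely Enpep, Lct and Dpp4, and 16.5% of all genes. Fitted differences were of like size, with Enpep at -0.46 ± 0.14 (adjusted p = 0.115), Mep1a at -0.59 ± 0.29 (0.341), Dpp4 at -0.44 ± 0.19 (0.268) and Lct at -0.69 ± 0.27 (0.22). Their standard errors were larger. In Mep1a the mutant butyrate arrays ran from 7.39 to 9.69, beyond the wild-type arrays on both sides. Without mutant butyrate array 2 Enpep passed with a smaller difference of -0.38 (adjusted p = 0.0332), where 1.11% of all genes passed. The differences of Mep1a (-0.45), Dpp4 (-0.34) and Lct (-0.57) were then smaller too and did not pass (adjusted p from 0.159 to 0.324). Anpep differed by -0.20 ± 0.25, and by -0.08 without that array, and Mep1b by -0.04 ± 0.09. Treh, at 0.09 ± 0.10, and Tmprss15, at 0.07 ± 0.25, had no settled sign when single arrays were left out.

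Within a single diet no member passed. On normal diet 0 of 8 did by limma (0.0242% of all genes, and 0 members at an unadjusted p under 0.05, against 12.7% of genes), and on high-fat diet 0 of 8 (0.0403% of all genes, and 1 member, Lct, at an unadjusted p under 0.05, against 11.3%). The arrays of the genotypes did not overlap in 3 members on normal diet, all lower in mutants, where 12.4% of all genes were lower in that way. On high-fat diet they did not overlap in 5 members, again all lower in mutants, where 20.2% of all genes were. The test of a different genotype effect on the diets called 0 of 8 members (0.00807% of all genes), with adjusted p of 0.915 or more for each member and 0 at an unadjusted p under 0.05, against 5.01% of all genes.

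The gene lists around the members show which other parts of the digestive surface moved with genotype in the same 9 arrays. Of 9 other measured brush border hydrolases, Xpnpep2, a membrane aminopeptidase that cuts before proline, fell (-0.82 ± 0.17, adjusted p = 0.0288, limma). Akp3, an intestinal alkaline phosphatase (1.33 ± 0.31, adjusted p = 0.0408), and Nt5e, an ecto-nucleotidase (0.87 ± 0.14, adjusted p = 0.00992), rose, and the other 6 did not pass. The list median was -0.01.

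Of 15 measured transporters of peptides, amino acids and sugars, 5 fell and 0 rose (list median -0.29). They were the glutamate and aspartate carrier Slc1a1 (-0.83 ± 0.12), the inositol carrier Slc5a11 (-0.82 ± 0.12), the glucose transporters Slc2a2 (-0.59 ± 0.13) and Slc5a1 (-0.29 ± 0.07), and Slc3a2, the heavy chain of amino acid exchangers (-0.36 ± 0.08). Structural genes of the brush border had a median of 0.07, and 1 of 13 fell, the scaffold gene Pdzk1 (-0.81 ± 0.14, adjusted p = 0.0118, limma). Of 17 transcription factors of the intestine 1 rose, Creb3l3 (0.29, adjusted p = 0.0321, limma), and 0 fell. The enterocyte marker that fell was Khk, the fructose kinase (-0.32 ± 0.08).

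**Figure D3:**
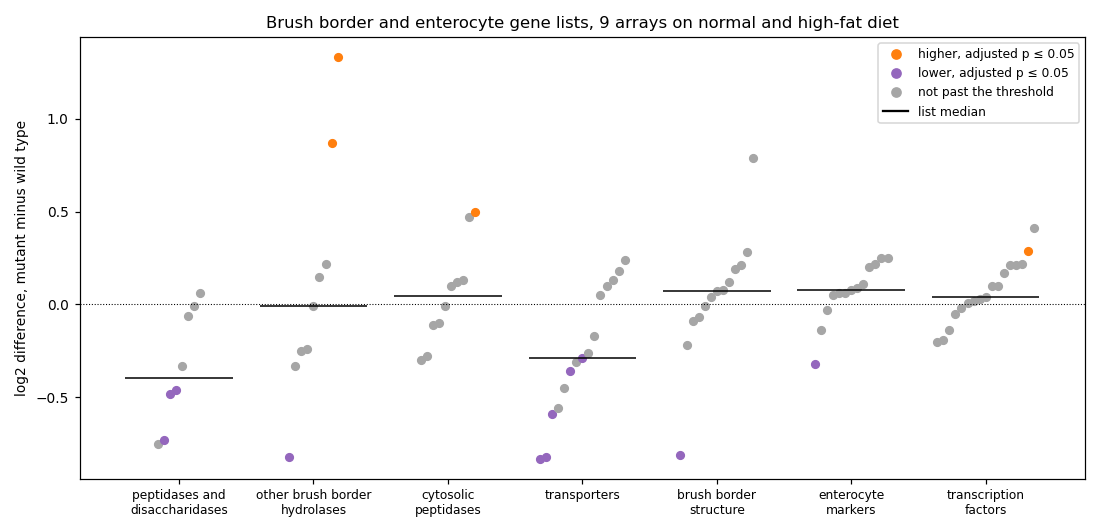
Log2 difference, mutant minus wild type (y axis), of each measured gene in the members' list and 6 related lists, in the 9 arrays on normal and high-fat diet. Points are genes, coloured by the limma test, and lines are list medians. The members and the transporters have medians of -0.40 and -0.29, and the other lists lie between -0.01 and 0.08.

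The diet comparisons showed another set of members. Treh encodes trehalase, a brush border enzyme anchored by a lipid. Its level on normal diet was 11.43 and 10.98 in wild type and 11.14, 11.36 and 11.24 in mutants. On high-fat diet it was 11.93 and 11.84 in wild type and 11.93 and 11.71 in mutants. All 4 high-fat arrays lay above all 5 normal diet arrays. The difference between high-fat and normal diet was 0.68 ± 0.15 in wild type (1.6-fold, adjusted p = 0.0185, limma) and 0.57 ± 0.14 in mutants (1.49-fold, adjusted p = 0.0168). It missed the threshold in 3 of 4 wild-type fits that left out an array (adjusted p = 0.0954 and 0.0759 without high-fat arrays 1 and 2, and 0.0949 without normal diet array 2). With these 4 wild-type arrays fitted alone, adjusted p was 0.132. In mutants it missed in 2 of 5 (0.135 without high-fat array 1 and 0.0637 without normal diet array 1).

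With butyrate added to the high-fat diet, Treh was at 10.75 in wild type and at 11.30, 11.14 and 10.98 in mutants. Each of these 4 arrays lay below the 4 high-fat arrays. The log2 difference was -1.13 ± 0.19 in wild type, 2.19-fold lower (adjusted p = 0.00384, limma, with 1 butyrate array assumed to vary like the other groups). With these 3 arrays fitted alone, adjusted p was 0.147. In mutants it was -0.68 ± 0.14, 1.6-fold lower (adjusted p = 0.00632), and 0.0654 without mutant high-fat array 1. These comparisons share the high-fat arrays with the comparison to normal diet, so the rise and the fall are not independent of each other. Against normal diet, mutants on high-fat diet with butyrate differed by -0.10 ± 0.13 in Treh, which did not pass (adjusted p = 0.724).

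Anpep followed the same order of diets with a wider range. On normal diet its level was 12.26 and 11.95 in wild type and 11.72, 12.06 and 11.47 in mutants. On high-fat diet it was 12.83 and 12.72 in wild type and 12.53 and 12.43 in mutants. The high-fat arrays lay above the normal diet arrays in both genotypes, by 0.67 ± 0.46 in wild type and 0.73 ± 0.42 in mutants, and neither difference passed (adjusted p = 0.384 and 0.264, limma). With the 5 mutant arrays of these diets fitted alone, Anpep passed (adjusted p = 0.0178). With butyrate the level was 10.73 in wild type and 11.57, 9.75 and 11.41 in mutants, each below every high-fat array.

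The fall of Anpep with butyrate was -1.57 ± 0.42 in mutants, 2.97-fold (adjusted p = 0.0209, limma). Without mutant butyrate array 2 it was smaller, at -0.99, and still passed (adjusted p = 0.00231). It did not pass without mutant high-fat array 1 or 2 (adjusted p = 0.107 and 0.086), or with the compared groups fitted alone (0.0941). In wild type it was -2.05 ± 0.56, 4.13-fold (adjusted p = 0.0331), and did not pass when high-fat array 1 or 2 was left out (0.0999 and 0.0913) or with the compared groups fitted alone (0.147). Mutants on butyrate differed from mutants on normal diet by -0.84 ± 0.37 in Anpep (adjusted p = 0.282), and by -0.26 without mutant butyrate array 2.

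**Figure D4:**
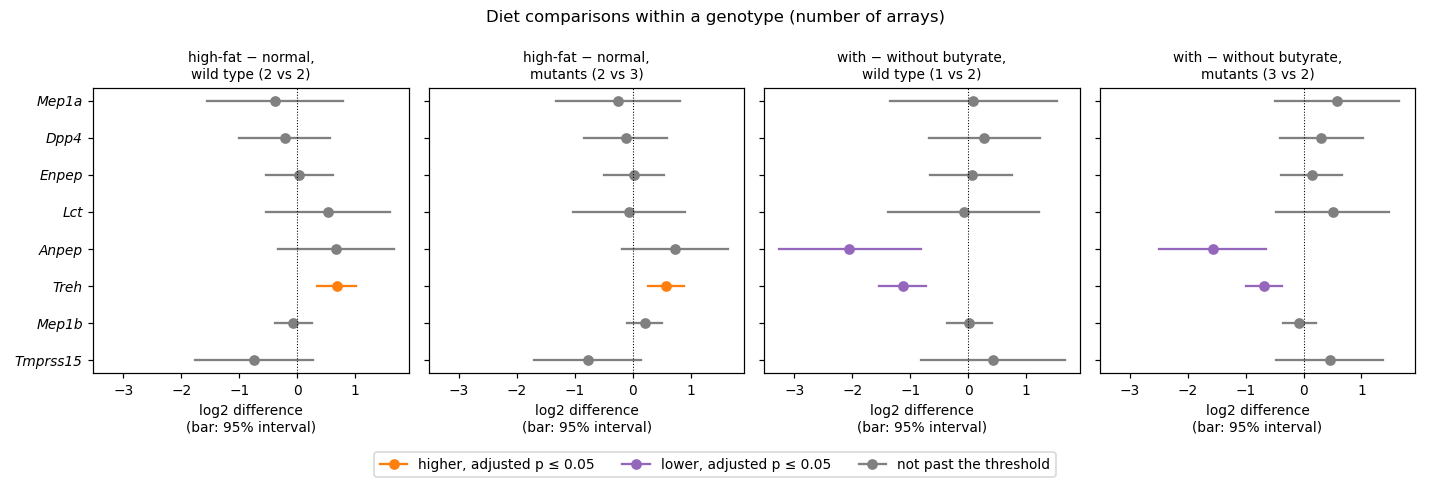
Log2 difference for each measured member (x axis, points) with its 95% interval (bars) between high-fat and normal diet and between high-fat diet with and without butyrate, within each genotype, from limma. Treh passes in all 4 comparisons and Anpep in the 2 butyrate comparisons, and no other member passes. The comparisons share the high-fat arrays.

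The shares of members that passed were near those of all genes. Between high-fat and normal diet 1 of 8 members passed in wild type, where 11% of all genes did, and 1 of 8 in mutants, where 17.7% did. With butyrate 2 of 8 passed in mutants, against 21.7% of all genes, and 2 of 8 in wild type, against 14.7%. No test showed that the diet effects on Treh or Anpep differed between genotypes, and adjusted p was 0.893 or more for the difference of each member's butyrate effect (0 of 8 members, 0.00807% of all genes, and 0 members at an unadjusted p under 0.05, against 5.55%).

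Some other brush border and enterocyte genes passed in the same comparisons. Of 9 other brush border hydrolases, 2 were higher on high-fat than on normal diet in wild type and 1 in mutants. With butyrate 1 was lower in wild type and 2 in mutants. Of 13 enterocyte markers, 3 were higher on high-fat diet in each genotype. With butyrate 1 of these markers was lower in wild type and 3 in mutants. No gene of either list passed in the opposite direction. Of 13 structural genes 3 were higher on high-fat than on normal diet in wild type, namely Espn, which bundles actin in microvilli (1.43 ± 0.16), Cdhr5, a protocadherin of microvillus tips (1.02 ± 0.11), and the harmonin gene Ush1c (0.51). In mutants 4 were higher, namely Espn (1.54 ± 0.14), Cdhr5 (0.95 ± 0.10), Ush1c (0.34) and the actin bundler gene Pls1 (0.37). With butyrate Espn (-2.50 ± 0.19), Cdhr5 (-1.25) and Ush1c (-0.49) fell in wild type. In mutants 5 fell, namely Espn (-2.53 ± 0.14), Cdhr5 (-0.97), Ush1c (-0.45), Actn4 (-0.39) and the ezrin gene Ezr (-0.36). Pls1 was not among those that fell with butyrate.

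Of the transcription factors of the intestine that passed, most rose on high-fat diet or fell with butyrate, in comparisons that share the high-fat arrays. Of 17 measured, Gata4 (1.02 ± 0.22) and Gata6 (1.01 ± 0.11) rose and Nr1h4, the bile acid receptor (-1.05), fell on high-fat diet in wild type. In mutants 5 rose and 0 fell, namely Hnf4g (1.03), Maf (0.90), Gata6 (0.85 ± 0.10), Gata4 (0.84 ± 0.20) and Klf5 (0.36). With butyrate Gata4 (-1.49 ± 0.27), Maf (-0.95) and Klf5 (-0.92) fell and Nr1h4 (1.03) rose in wild type. In mutants 6 fell and 0 rose, among them Maf (-1.05), Gata4 (-0.94 ± 0.20), Klf5 (-0.78) and Gata6 (-0.64). Gata4 is a factor of the proximal small intestine, where it keeps ileal genes off in mice. The array series changed with the diet in each of these comparisons. Between high-fat and normal diet the acinar pancreas list had a median of 3.24 in wild type and -2.40 in mutants, and its part in the members' values was not tested.

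Mep1a, Dpp4, Enpep and Lct did not pass in the butyrate comparison of mutants, where 1 array decided the outcome. Mep1a was at 9.69, 7.39 and 8.91 on mutant butyrate arrays 1, 2 and 3, and at 8.84 in wild type with butyrate. Dpp4 was at 11.55, 10.04 and 11.11, and at 11.28 in wild type. Enpep was at 12.74, 11.72 and 12.72 on these mutant arrays, and at 12.80 in wild type. Array 2 was the lowest of all arrays in each, while arrays 1 and 3 were above every mutant array without butyrate.

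Lct was at 12.52, 10.99 and 12.50 on mutant butyrate arrays 1, 2 and 3, and at 12.50 in wild type with butyrate. Over the 3 mutant arrays the differences from mutants on high-fat diet alone were 0.58 ± 0.49 for Mep1a, 0.31 ± 0.33 for Dpp4, 0.14 ± 0.24 for Enpep and 0.51 ± 0.44 for Lct, with adjusted p from 0.443 to 0.733 (limma). The second Dpp4 probe set had a larger difference in the same direction, which just missed the threshold (adjusted p = 0.0513, limma). Its level was 8.19, 6.54 and 7.74 on mutant butyrate arrays 1, 2 and 3. On mutant high-fat arrays 1 and 2 it was 6.19 and 6.59, so butyrate array 2 was not its lowest array. Without mutant butyrate array 2, the same comparison called 6 of 8 members, and 24.5% of all genes. Mep1a (1.22, adjusted p = 0.0081), Dpp4 (0.75, 0.01), Enpep (0.48, 0.00359) and Lct (1.01, 0.0426) were then higher with butyrate, and Anpep and Treh lower as before. Array 2 was singled out by its low values in these same genes, so p-values without it may be too small and do not establish a rise. Against mutants on normal diet 0 of 8 members passed (1.57% of all genes by limma, and 1 member, Anpep, at an unadjusted p under 0.05, against 17.1%), and without array 2 there were 3 (5.06% of all genes), namely Mep1a (0.96, adjusted p = 0.0494), Dpp4 (0.62, 0.0474) and Enpep (0.50, 0.00718). Nothing in the labels sets array 2 apart from the other arrays of its group. The acinar pancreas mean was 9.85 on array 2, and 6.57 and 5.59 on arrays 1 and 3. The enterocyte marker mean was 12.59 on array 2, and 12.60 and 12.64 on arrays 1 and 3. The ileum marker mean was 6.79 on array 2, and 7.33 and 7.29 on arrays 1 and 3. That of proximal small intestine markers was 9.68 on array 2, and 9.35 and 9.18 on the others. Paneth marker means were 7.32 on array 2, and 9.83 and 8.96 on the others. The macrophage marker mean was 7.18 on array 2, and 7.65 and 7.77 on arrays 1 and 3, and 4 of 9 macrophage markers (Csf1r, Tyrobp, C1qb and Aif1) rose with butyrate in mutants. The part of other cells and tissue, or of position along the gut, in the low values of array 2 was not tested.

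Between mutants and the single wild-type array on butyrate 0 of 8 members passed (0% of all genes by limma, and 1 member, Treh, at an unadjusted p under 0.05, against 6.04%). Arrays of the same group also differed in the same sense for several members. Among the 9 pairs of arrays that share a group, 5 pairs of members were ordered alike in 8, the highest count. They were Dpp4 with Enpep, Dpp4 with Lct, Mep1a with Lct, Anpep with Enpep and Mep1b with Enpep. The other pairs of members were ordered alike in 4 to 7. Treh was ordered like Mep1a and Anpep in 7 each, and like Dpp4 and Mep1b in 5 each. Tmprss15 was ordered like the others in 4 to 6. Pairs drawn from 1 group of 3 share arrays, so the 9 pairs are not independent. Some of them include the mutant butyrate array that was lowest in 5 members. The share over all pairs of genes was not computed, so these counts cannot be called particular to the members.

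Mep1b and Tmprss15 remain. Mep1b forms dimers with the alpha subunit in the membrane. Its level kept within 12.06 and 12.54 on all 13 arrays, a range of 0.48 that is smaller than the median range of 0.75 over all genes. Mep1a, the other subunit, had a range of 2.30, between mutant butyrate arrays 2 and 1. The difference between the genotype effects of the subunits was not tested.

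Tmprss15 was on the level of the array medians, from 5.38 to 7.24, and no detection calls were used here, so its probe set may carry little signal. On normal diet it was at 6.11 and 7.24 in wild type and 6.43, 7.04 and 6.77 in mutants, and on high-fat diet at 6.47 and 5.38 in wild type and 5.57 and 6.37 in mutants. The arrays of the genotypes overlapped on both diets. High-fat diet differed from normal diet by -0.75 ± 0.46 in wild type and -0.77 ± 0.42 in mutants (adjusted p = 0.333 and 0.238, limma). Leaving out an array moved these values from -1.31 (without wild-type normal diet array 1) to -0.18 (without normal diet array 2) in wild type, and from -1.17 (without mutant high-fat array 2) to -0.37 (without high-fat array 1) in mutants, and none passed. With butyrate it was at 6.35 in wild type and from 6.0 to 7.0 in mutants.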

How the data were processed

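The deposited log2 values were made by the authors with Affymetrix Expression Console 1.1 and RMA, per the submitters' processing notes. RMA corrects background, normalizes by quantiles and summarizes probes. The sources used here give no genome build for the probe sets. The labels name a whole-transcript labelling kit. Of 22690 probe sets, 20380 had exactly 1 symbol in the platform annotation, 691 several, and 1555 none, and 64 were controls. Each of 12393 genes was represented by its probe set with the highest mean. Tests used R 4.3.3 and limma 3.58.1 (eBayes with trend), with two-sided p-values adjusted by Benjamini-Hochberg over all genes and a threshold of 0.05, in 12 comparisons. Genotype effects had diet as a term, over 13 or 9 arrays. Other contrasts used 6 group means over 13 arrays. Errors beside differences are SE. The labels do not say that arrays are separate animals beyond calling them mice, and p-values then measure only how these samples vary, which may be technical. High-fat array 2 of both genotypes carries the same number in its identifier, with no meaning given. On simulated data with 12393 genes, the genotype fit of 9 arrays recovered 41.8% of changes of 0.5 and 91% of changes of 1. The simulated spread of each gene came from all 13 arrays, so these rates need not hold for the real 9 arrays.

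Members, the 17 other gene lists and the genotype comparison without the butyrate arrays were chosen with earlier results of these data known. All members were named. Of the other lists a comparison describes, the genes that passed were named, all of them where 5 or fewer passed and the 4 with the smallest p otherwise. For the other hydrolases and the enterocyte markers in the diet comparisons only counts are given. Alternatives were quantile normalization, dim genes left out (under the 30th percentile), the mean of probe sets, no trend, array weights, the compared groups alone, equal diet weights, replicate number as a block and leaving out each array. The number of arrays limits precision. Same-numbered arrays of the same diet deviated from their group means with correlations of 0.01 for both high-fat pairs, and of -0.24 and -0.33 for the normal diet pairs. In the high-fat groups of 2 arrays the deviations mirror each other, so both pairs must give the same value. Between diets, same-numbered arrays had correlations from -0.31 to 0.42. These few values cannot settle whether the numbers pair the samples.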

Additional observations from a re-analysis of the deposited data

How the results depend on the processing

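The number of members called was the same in all 12 comparisons under quantile normalization, with dim genes left out, with the mean of probe sets, without an intensity trend and with array weights, and in the genotype comparison of 13 arrays with each diet weighted equally. Fitting the compared groups alone gave 0 members for high-fat against normal diet in wild type and 2 (Anpep and Treh) in mutants, and with butyrate 1 (Treh) in mutants and 0 in wild type. The replicate block, whose numbers are not known to pair the arrays, left 1 member, Enpep, in the genotype comparison of 9 arrays (Mep1a -0.73, adjusted p = 0.0659, and Dpp4 -0.43, 0.088), and 244 genes against 574 without it. It changed no other count of members. The block fits left out the wild-type butyrate array, whose label has no number, so comparisons that need this array have no value with the block, or when this array is left out. Counts over all genes moved more. For genotype over 13 arrays they were 127, against 58 without the trend, 5 with each diet weighted equally and 221 with the replicate block. For high-fat against normal diet in wild type they were 1368, against 637 with array weights and 116 with the compared groups alone. For butyrate in wild type 1820 became 0 with the compared groups alone. For butyrate against normal diet in mutants 195 became 623 with array weights, and for genotype within a diet 3 became 36 with the compared groups alone on normal diet and 5 became 14 with array weights on high-fat diet. The cause of these shifts was not tested, apart from the fewer arrays in the fits that lose some.

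Leaving out an array gave 0 to 1 members for genotype over 13 arrays, 1 to 4 over 9 arrays, 0 to 1 for high-fat against normal diet in wild type and in mutants, 0 to 6 for butyrate in mutants, 1 in wild type, and 0 to 3 for butyrate against normal diet in mutants. The sign turned within these ranges of log2 difference. For genotype over 13 arrays they were Tmprss15 from -0.10 to 0.23, Mep1b from -0.08 to 0.03 and Treh from -0.01 to 0.17. Over 9 arrays they were Tmprss15 from -0.18 to 0.30, Mep1b from -0.11 to 0.04 and Treh from -0.11 to 0.08. For butyrate in mutants they were Dpp4 from -0.01 to 0.75 and Enpep from -0.03 to 0.48. For butyrate against normal diet in mutants they were Mep1a from -0.19 to 0.96, Dpp4 from -0.13 to 0.62 and Enpep from -0.01 to 0.50.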

Other observations

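The genes whose levels followed those of single members most closely over the 13 arrays were as follows. The search left out the members themselves and symbols of predicted genes, clones, accessions and mitochondrial genes, so a closer gene may exist. The nearest genes are given as a description, since arrays share diets and array series. Lct was most like Slc5a4b, a member of the sodium-glucose cotransporter family (Pearson r = 0.969), Reg3a, a secreted lectin (0.939), and Nrg4, an epidermal growth factor family ligand (0.935). Mep1a was most like the cytochrome P450 gene Cyp2b10 (0.941), the water channel gene Aqp1 (0.927) and Slc3a2 (0.925). Slc3a2 was also nearest to Dpp4 (0.938), ahead of Thtpa (0.924) and Cyp4v3 (0.911). Enpep was nearest to the membrane-bound carbonic anhydrase gene Car4 (0.922), then Slc3a2 (0.915) and Reg3a (0.913). Treh was nearest to Anapc11 (0.960), Pdk2, a kinase that holds back pyruvate dehydrogenase (0.959), and the homeobox gene Nkx2-3 (0.951). Anpep was nearest to Slc38a10 (0.919), Resf1 (0.903) and Zbtb45 (0.902). For Mep1b (Cyth1, 0.818, C2, 0.817, and Slain1, 0.797) and Tmprss15 (Gsdme, 0.877, Nipsnap2, 0.875, and Mettl9, 0.862) the nearest genes were less alike.

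Peptidases of the cytosol, which finish the work of the brush border inside the cell, had a list median of 0.04 for genotype in the 9 arrays. Of 10 measured, 1 rose in mutants, Prep, the prolyl oligopeptidase (0.50 ± 0.10, adjusted p = 0.0203, limma), and 0 fell. Among the transporters, Slc2a5, the fructose transporter, was lower on high-fat than on normal diet in wild type (-0.95 ± 0.17, adjusted p = 0.00694, limma), the only 1 of 15 to pass there.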
